A study of Homo sapiens with 4 samples.

Results

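A set of 8 genes of the hemidesmosome and of its laminin ligand was examined in RNAseq of T24 cells, a human bladder carcinoma line. The genes were taken by symbol from the deposited tables, and all 8 of 8 were found among the 57879 genes listed. They are ITGA6, ITGB4, CD151, COL17A1, PLEC, DST, LAMA3 and LAMB3. They were chosen with the difference between TET1-CD and EV cells already known, so the difference for each of them is described here without a test. T24 cells in both groups were grown in RPMI with fetal calf serum, were stably transduced with lentivirus and were selected with puromycin. EV cells carried the empty vector and are called control in the labels, and TET1-CD cells expressed the catalytic domain of TET1, an enzyme that oxidises 5-methylcytosine. Each group had 2 libraries, and the source name of all 4 was T24_induced. No library of cells with the catalytically dead mutant was analysed here, so enzyme activity and overexpression of the protein cannot be told apart. Whether replicates came from separate cultures is not stated, so the p-values below measure only the spread between these libraries.

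Hemidesmosomes are the junctions that fix basal epithelial cells to the basement membrane. Their transmembrane core is the integrin α6β4 together with type XVII collagen and the tetraspanin CD151, and on the inside plectin and the BP230 product of DST tie that core to keratin filaments. Outside the cell, α6β4 binds laminin-332, a trimer to which LAMA3 and LAMB3 contribute the α3 and β3 chains. In normal urothelium β4 integrin marks the basal surface of the basal cells, and loss or redistribution of the β4 subunit has been described in invasive bladder carcinoma.

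The estimated counts summed to between 17442143 and 20295266 fragments per library. TET1 had 111 and 83 counts in EV libraries against 2939 and 3310 in TET1-CD libraries, a log2 fold change of 5.02 (standard error, SE, 0.08, adjusted p = 4.9e-10 by edgeR's quasi-likelihood test), so the labels fitted the overexpressed gene. The 5 epithelial markers KRT7, KRT8, KRT18, KRT19 and EPCAM summed to 40324 to 47521 counts in EV libraries against 46548 to 51296 in TET1-CD libraries. Nearly all of these counts were of KRT7, KRT8 and KRT18. KRT19 had 103 and 66 counts in EV libraries against 165 and 169 in TET1-CD libraries. EPCAM was low as well, with 55 and 46 against 60 and 86. The 6 urothelial differentiation markers were close to absent, with sums of 23 to 24 in EV and 34 to 45 in TET1-CD libraries, 4 of them at 3 counts or fewer in every library, and KRT20 at 0. Sums were 16 to 22 and 31 to 32 counts for 5 fibroblast markers, 17 to 18 and 11 to 13 for 5 leukocyte markers, and 14 to 20 and 16 to 23 for 4 endothelial markers, in EV and TET1-CD libraries respectively. The part of these markers in the results below was not tested.

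All 8 members passed the filter on low counts, among 14573 genes tested. A gene was called when its fold change was at least 2 and its adjusted p was under 0.05. By this call ITGB4 was the single member called, 1 of 8, where 3.77% of all genes tested were called (2.72% higher and 1.04% lower). At an adjusted p under 0.05 and any fold change, 2 members were higher (ITGB4 and PLEC) and 1 was lower (COL17A1) in TET1-CD cells, where 10.0% of all genes tested were higher and 9.61% lower. The normalised counts of the groups did not overlap for the same 3 members, where 61.0% of all genes tested did not overlap. The median log2 fold change was -0.04 over the 8 members and 0.00 over all genes tested. Nothing is read from these counts, because the members were chosen on this contrast.

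**Figure D1:**
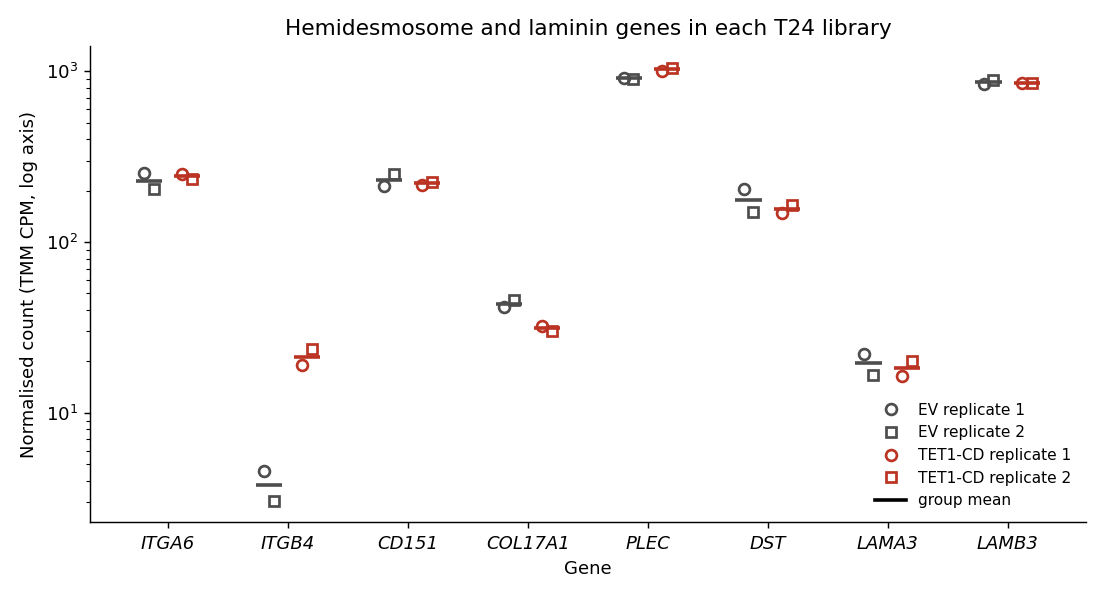
Normalised counts (CPM, counts scaled to library size with TMM factors, log axis) of the 8 members in each library, with circles for replicate 1, squares for replicate 2 and lines for group means. ITGB4 lay at 4.55 and 3.06 CPM in EV libraries against 19.0 and 23.6 CPM in TET1-CD cells, while ITGA6, CD151, DST, LAMA3 and LAMB3 overlapped between the groups.

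ITGB4 encodes the β4 subunit, whose long cytoplasmic tail binds plectin and which pairs only with α6. It lies on the plus strand at chr17:73717408-73753899 (GRCh37, ENSG00000132470). It had 92 and 53 counts in EV libraries against 333 and 462 in TET1-CD libraries. The TET1-CD values both exceeded the EV values. In normalised counts this was 3.80 ± 1.05 CPM in EV cells against 21.3 ± 3.24 CPM in TET1-CD cells (SD, n = 2), a log2 fold change of 2.47 (SE 0.18) or 5.53-fold. With each library left out in turn, the log2 fold change was between 2.23 and 2.79. In bulk RNA, more cells with the transcript and more transcript per cell cannot be told apart.

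ITGA6 encodes the α6 subunit, which pairs with β4 in hemidesmosomes and with β1 elsewhere. It lies on the plus strand at chr2:173292082-173371181 (GRCh37, ENSG00000091409). It had 5137 and 3530 counts in EV libraries against 4407 and 4614 in TET1-CD libraries, or 254 and 204 against 251 and 235 CPM. Both TET1-CD libraries lay between the EV libraries, and the log2 fold change was 0.09 (SE 0.09). The sign turned with the EV library used, to -0.06 without EV replicate 2, and the value was 0.25 without EV replicate 1.

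Transcripts of the members differ in the domains they encode, and the deposited estimates split the counts of a gene among them. The tool that made the split is not given in the sources used here, so each share below is an estimate, described without a test. Alternative exons in the cytoplasmic tails of both integrin subunits were read from the GRCh37 genome, and they are shown because they separate the forms counted below. For ITGA6 this is the coding part, chr2:173366500-173366604 on the plus strand, of exon 25 of 26 in ENST00000264107. Its inclusion gives the α6A tail and its omission the α6B tail. For ITGB4 it is exon 33 of 40 in ENST00000200181, chr17:73749846-73750055 on the plus strand, which is 210 bases long and 80.0% G or C. No letters are in capitals in these exons.
ITGA6 exon 25, coding part: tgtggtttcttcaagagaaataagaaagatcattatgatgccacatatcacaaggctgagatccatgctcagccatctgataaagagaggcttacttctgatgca
ITGB4 exon 33: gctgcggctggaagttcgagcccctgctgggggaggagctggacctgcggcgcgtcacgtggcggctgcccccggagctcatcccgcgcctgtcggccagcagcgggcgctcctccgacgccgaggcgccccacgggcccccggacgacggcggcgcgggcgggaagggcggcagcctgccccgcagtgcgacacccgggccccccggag

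Forms of ITGA6 that hold the exon took 67.4% and 69.0% of its estimated counts in EV libraries against 69.2% and 70.2% in TET1-CD libraries. Forms without it took 26.9% and 28.9% in EV libraries against 28.1% and 27.3% in TET1-CD libraries. The α6A form was therefore the larger in every library, and its highest EV share lay close under its lowest TET1-CD share. For ITGB4, the form that holds its exon took 14.6% and 16.1% of the estimated counts in EV libraries against 4.64% and 4.81% in TET1-CD libraries. That form had 13.5 and 8.52 estimated counts in EV libraries against 15.5 and 22.2 in TET1-CD libraries. The coding forms without the exon had 76.4 and 41.1 in EV libraries against 318 and 430 in TET1-CD libraries. The exon lies within the span of GALK1 on the other strand, and whether GALK1 reads entered these estimates was not tested. By these estimates, the forms without the exon held most of the difference in ITGB4. Among them, ENST00000579662 had 67.1 and 41.1 estimated counts in EV libraries against 197 and 168 in TET1-CD libraries. ENST00000450894, which has the same coding length and another 5′ start, had 9.27 and 0.01 in EV libraries against 119 and 240 in TET1-CD libraries. The TET1-CD libraries differed in which of these forms was the larger.

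CD151 encodes a tetraspanin that associates with the laminin-binding integrins. It lies on the plus strand at chr11:832843-839831 (GRCh37, ENSG00000177697). Its counts were 4287 and 4342 in EV libraries against 3808 and 4426 in TET1-CD libraries, or 212 and 251 against 217 and 226 CPM. The TET1-CD values again lay between the EV values. The log2 fold change was -0.06 (SE 0.08), which became 0.06 without EV replicate 2 and -0.19 without EV replicate 1.

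COL17A1 encodes type XVII collagen, also called BP180, a transmembrane collagen that binds β4, plectin and BP230. It lies on the minus strand at chr10:105791044-105845760 (GRCh37, ENSG00000065618). Counts were 843 and 790 in EV libraries against 565 and 594 in TET1-CD libraries. Both TET1-CD libraries were below both EV libraries, the opposite direction to ITGB4. The normalised level was 43.6 ± 2.82 CPM in EV cells against 31.2 ± 1.34 CPM in TET1-CD cells (SD, n = 2), a log2 fold change of -0.48 (SE 0.08) or 1.40-fold lower. Leaving out each library in turn gave -0.56 to -0.42.

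The plakins PLEC and DST link this core to the cytoskeleton. PLEC encodes plectin and lies on the minus strand at chr8:144989321-145050902 (GRCh37, ENSG00000178209). It had 18551 and 15666 counts in EV libraries against 17585 and 20616 in TET1-CD libraries, or 917 and 905 against 1002 and 1051 CPM. After normalisation the TET1-CD values both exceeded the EV values, by a log2 fold change of 0.17 (SE 0.05), 1.13-fold. Without TET1-CD replicate 1 or replicate 2 the log2 fold change of PLEC was 0.21 and 0.14, a small difference that 2 libraries per group bound poorly. DST encodes dystonin, whose epithelial product is BP230, and lies on the minus strand at chr6:56322785-56819426 (GRCh37, ENSG00000151914). Its counts were 4135 and 2599 in EV libraries against 2581 and 3235 in TET1-CD libraries, or 204 and 150 against 147 and 165 CPM. The groups overlapped, since TET1-CD replicate 2 exceeded EV replicate 2. Its log2 fold change was -0.19 (SE 0.12), and it became 0.05 without EV replicate 1 and -0.39 without EV replicate 2.

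LAMA3 and LAMB3 encode the α3 and β3 chains of laminin-332. LAMA3 lies on the plus strand at chr18:21269407-21535030 (GRCh37, ENSG00000053747) and had 450 and 290 counts in EV libraries against 288 and 392 in TET1-CD libraries. That is 22.2 and 16.8 CPM against 16.4 and 20.0 CPM, so the groups overlapped. The log2 fold change was -0.10 (SE 0.14), with 0.12 without EV replicate 1 and -0.29 without EV replicate 2. LAMB3 lies on the minus strand at chr1:209788215-209825811 (GRCh37, ENSG00000196878) and had 17024 and 15337 counts in EV libraries against 15067 and 16649 in TET1-CD libraries. At 841 and 886 against 859 and 849 CPM, the groups overlapped. The log2 fold change was -0.02 (SE 0.05), the nearest to 0 among the members, with -0.06 without EV replicate 1 and 0.02 without EV replicate 2.

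TET1 acts on methylated CpG sites, and the CpG content of the starts is given here as a description of their sequence, since methylation was not analysed here. RefSeq windows of 300 bases (GRCh38.p14), from 250 bases before to 50 after a start, were matched for 5 of 8 members and placed on GRCh37 by exact match. ITGB4, PLEC and CD151 were not matched. Over 35116 such windows the median number of CpG sites was 14, with quartiles of 4 and 28. The window of the COL17A1 start held 1 CpG, more than 3.96% of all windows, and the epithelial start of DST and the downstream start of LAMB3 held 3 each, more than 18.2%. At the other end were the DST start of ENST00000680361, with 45 CpG sites, more than 96.5% of windows, and the ITGA6 start of ENST00000409080, with 38, more than 90.1%. The LAMA3 internal start held 13. The upstream start of LAMB3, which took most of its estimated counts in every library, had 2 windows, with 10 and 11. The ITGA6 window at ENST00000412899 held 11, and the DST window near ENST00000517937 held 6. The COL17A1 window and the ITGA6 window at ENST00000412899 each held the hexamer TATAAA 1 time, and 11.5% of all windows held it on either strand. The members' starts thus ranged from nearly free of CpG to dense in it.

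The stretches before 4 of these starts are shown, up to the first base of any annotated exon or of the gene in the deposited tables, because they carry the low CpG content and the motif matches described here. Capitals mark CG in the COL17A1 (chr10:105845761-105845888, minus strand) and DST (chr6:56507795-56507937, minus strand) stretches, where the COL17A1 one holds none. In the LAMA3 (chr18:21452734-21452983, plus strand) and LAMB3 (chr1:209824740-209824969, minus strand) stretches, capitals mark TGACTCA, the letters of an AP-1 motif, read on either strand. All positions are on GRCh37.
COL17A1 start: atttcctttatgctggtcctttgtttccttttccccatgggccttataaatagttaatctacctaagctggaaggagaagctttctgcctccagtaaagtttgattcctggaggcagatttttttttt
DST epithelial start: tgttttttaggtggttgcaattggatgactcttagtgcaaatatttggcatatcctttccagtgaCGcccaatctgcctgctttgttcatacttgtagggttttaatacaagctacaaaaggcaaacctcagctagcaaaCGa
LAMA3 internal start: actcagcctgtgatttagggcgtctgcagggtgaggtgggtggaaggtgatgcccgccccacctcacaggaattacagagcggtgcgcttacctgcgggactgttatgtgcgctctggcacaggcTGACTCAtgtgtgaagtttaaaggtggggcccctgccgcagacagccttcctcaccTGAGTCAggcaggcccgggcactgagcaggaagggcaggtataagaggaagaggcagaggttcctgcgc
LAMB3 downstream start: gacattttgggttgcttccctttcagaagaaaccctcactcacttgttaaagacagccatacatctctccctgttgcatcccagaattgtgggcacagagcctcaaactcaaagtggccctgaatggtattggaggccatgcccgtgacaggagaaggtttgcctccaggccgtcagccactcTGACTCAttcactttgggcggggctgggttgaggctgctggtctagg

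TGACTCA on either strand was found in 4.95% of all windows. It was found 2 times in the LAMA3 internal window, where 0.222% of all windows held 2 or more matches, and 1 time each in the LAMB3 downstream window and in the DST window at ENST00000680361. The LAMB3 upstream windows and the remaining member windows held none. A match is a description of these letters and says nothing of a factor bound there.

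**Figure D2:**
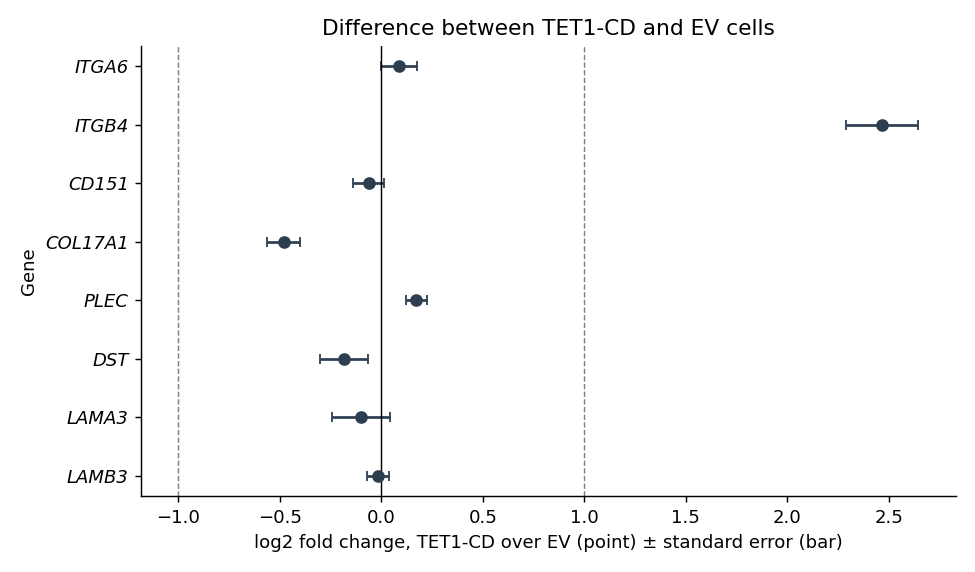
Log2 fold change of TET1-CD over EV (point) with its standard error (bar) for each member, with dashed lines at a fold change of 2 in either direction. ITGB4 at 2.47 lies outside the dashed lines, and the other 7 members lie between -0.48 and 0.17.

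The EV libraries differed from each other by transcript length. The genes tested were put in 10 equal bins of length. In the bin of longest genes, the median log2 ratio of EV replicate 2 over EV replicate 1 was -0.13, against 0.08 in the bin of shortest genes. The same medians between the TET1-CD libraries were 0.00 and 0.00. ITGA6, DST and LAMA3, with EV replicate 1 above EV replicate 2, are in the bin of longest genes. So is PLEC, with 917 and 905 CPM in EV replicates 1 and 2. CD151, with EV replicate 2 above, is in bin 3 counted from the shortest. In bin 9, ITGB4 had EV replicate 1 above. COL17A1 in bin 9 had EV replicate 2 above, though the bin median was -0.07. LAMB3 in bin 8 also had EV replicate 2 above, though that median was -0.04. The part of length in these differences was not tested. Taking off the median of genes of like length left ITGA6 at 0.12, LAMA3 at -0.07, PLEC at 0.20 and DST at -0.15.

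Levels of different genes were compared per length, as FPKM (fragments scaled to transcript length and library size) summed over the transcripts of a gene. In EV cells the order of mean FPKM was LAMB3 with 225 ± 7.30 (SD, n = 2), CD151 with 156 ± 19.8, PLEC with 63.7 ± 1.37, ITGA6 with 42.1 ± 6.92, DST with 19.9 ± 1.16, COL17A1 with 9.96 ± 0.983, LAMA3 with 2.58 ± 0.311 and ITGB4 with 0.825 ± 0.134. The EV libraries of each gene in this order lay above those of the next one. LAMB3 was above 98.0% of the genes tested in EV cells, whereas ITGB4 was above 13.1%. In TET1-CD cells ITGB4 had 3.39 and 4.63 FPKM and LAMA3 had 2.38 and 2.69, so the order of these genes was the reverse, and ITGB4 was above 33.0% of the genes tested.

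The RNAs of the subunits of a complex were therefore at unequal levels, and the size of the gap differed between groups for the integrin. Protein was not analysed here, and α6 also pairs with β1. The FPKM of ITGA6 was 51.0 and 50.9 times that of ITGB4 in the EV libraries, and 13.9 and 9.42 times in the TET1-CD libraries. The groups did not overlap in this ratio, which holds the ITGB4 difference already given and was not tested. The FPKM of LAMB3 was 78.4 and 97.4 times that of LAMA3 in EV and 94.6 and 83.0 times in TET1-CD libraries, and here the groups overlapped.

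**Figure D3:**
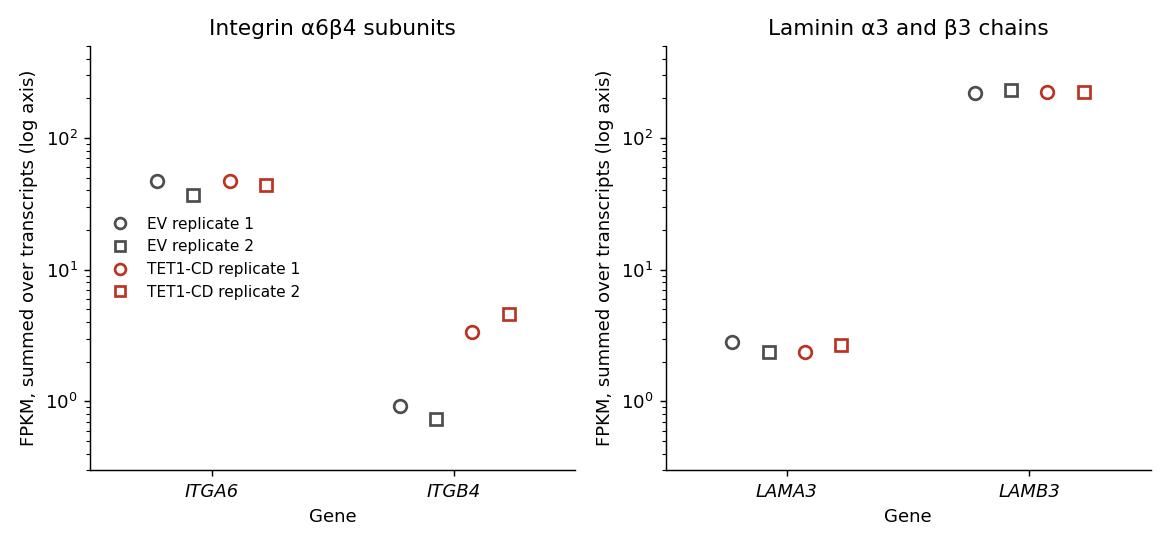
FPKM summed over transcripts (log axis) of the integrin α6β4 subunits at left and of the laminin α3 and β3 chains at right, with 1 point per library. ITGB4 stood at 0.92 and 0.73 FPKM in EV libraries against 3.39 and 4.63 in TET1-CD cells, below ITGA6 in every library, and LAMA3 between 2.36 and 2.80 lay under LAMB3 in every library.

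LAMA3 has a long α3B product from its upstream start and a short α3A product from an internal start, and α3A is the chain known from epidermal laminin-332. Transcripts from the upstream start took 74.3% and 68.1% of its estimated counts in EV libraries against 70.6% and 76.0% in TET1-CD libraries. Transcripts from the internal start had 0.08 and 21.1 estimated counts in EV libraries against 56.3 and 0.00 in TET1-CD libraries. By these estimates each group had 1 library with next to none of this form, and the groups overlapped. LAMA3 transcripts with no coding sequence given had 115.59 and 70.55 estimated counts in EV libraries against 28.27 and 94.11 in TET1-CD libraries. Most were of ENST00000588770, which lies within the span of ENST00000269217 from the internal start. This class was lowest in TET1-CD replicate 1, where the internal start was highest. How the estimates split counts between these classes was not tested. LAMB3 has an upstream and a downstream start. The downstream start took 13.1% and 12.3% of its estimated counts in EV libraries against 9.82% and 10.2% in TET1-CD libraries, so both TET1-CD libraries were below both EV libraries.

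In DST, transcripts from the epithelial start took 51.6% and 58.3% of the estimated counts in EV libraries against 61.9% and 61.9% in TET1-CD libraries. Of these, ENST00000244364 alone took 48.1% and 54.2% in EV libraries against 58.2% and 58.3% in TET1-CD libraries. ENST00000370765, which encodes BP230 with 2649 residues, took 3.09% and 3.96% in EV libraries against 3.37% and 3.36% in TET1-CD libraries. The form that joins hemidesmosomes was thus a small share of DST in every library, with 128 and 103 estimated counts in EV libraries against 87.0 and 109 in TET1-CD libraries.

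In PLEC, ENST00000345136 took 45.9% and 37.1% in EV libraries against 38.8% and 40.0% in TET1-CD libraries, and ENST00000356346 took 21.8% and 31.6% in EV libraries against 35.6% and 33.2% in TET1-CD libraries. The EV libraries differed from each other in the share of ENST00000356346 by more than the nearest libraries of the groups did. In CD151, ENST00000322008 took 48.3% and 43.9% in EV libraries against 46.5% and 53.1% in TET1-CD libraries, so the groups overlapped. ENST00000397421, which encodes a protein of the same length, took 30.7% and 29.2% in EV libraries against 31.7% and 32.4% in TET1-CD libraries. In COL17A1 the single transcript ENST00000353479 took between 95.3% and 97.1% in the 4 libraries, so its lower level was that of this transcript.

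**Figure D4:**
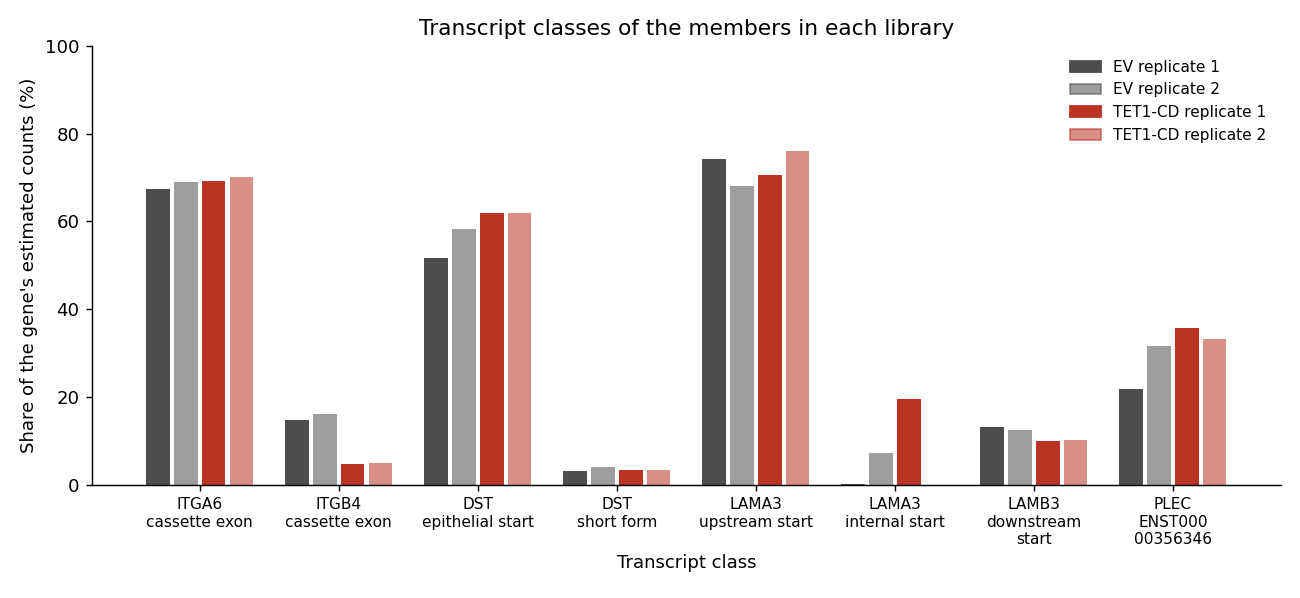
Share (%) of the estimated counts of a gene held by a class of its transcripts in each library, with dark and light bars for replicates 1 and 2. The ITGB4 form with the cassette exon is at 14.6% and 16.1% in EV libraries against 4.64% and 4.81% in TET1-CD cells, while ITGA6 with its exon stays between 67.4% and 70.2%, and the LAMA3 internal start is at or near 0 in 1 library of each group.

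Genes near ITGB4 and overlapping genes were examined next. Within 500 kb on either side, 32 genes were tested, with a median log2 fold change of -0.01. Their values ran from -0.62 to 3.02, so the highest was above the 2.47 of ITGB4. Of these neighbours 2 were called, where 3.77% of all genes tested were called. The nearest tested gene on the lower side, SAP30BP at 13266 bp, differed by a log2 fold change of 0.08 (SE 0.07, adjusted p = 0.473 by edgeR), and the nearest on the higher side, H3F3B at 18616 bp, had one of -0.14 (SE 0.05, adjusted p = 0.0968 by edgeR). GALK1 overlaps the 3′ part of ITGB4 on the other strand. Its counts were 327 and 284 in EV libraries against 228 and 315 in TET1-CD libraries (adjusted p = 0.386 by edgeR), and its groups overlapped. Whether the libraries kept strand is not stated, and reads of overlapping genes may then be exchanged. The same holds for AC093818.1 in ITGA6, with 119 and 101 counts in EV libraries against 73 and 76 in TET1-CD libraries (log2 fold change -0.54, adjusted p = 0.0401 by edgeR), and for POLR2L in CD151 (-0.04, adjusted p = 0.705).

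The genes whose counts across the 4 libraries most resembled those of ITGB4, by the distance of centred log2 CPM, were FAM26F, ATP2A3 and ALDH1L2. FAM26F was the closest at a distance of 0.0890, with 1 and 0 counts in EV libraries against 10 and 13 in TET1-CD libraries. The log2 CPM used a prior count of 2, which draws in the ratios of such low counts. In the fit its log2 fold change was 4.23, against 2.47 for ITGB4, 2.47 for ATP2A3 and 2.48 for ALDH1L2. ATP2A3 and ALDH1L2 were picked for closeness to ITGB4, so their like values follow from this choice and nothing is read from them. ALDH1L2, at 0.268, had counts of a similar size to ITGB4, with 75 and 55 in EV libraries against 321 and 396 in TET1-CD libraries. ATP2A3, at 0.186, had 12 and 6 in EV libraries against 41 and 59 in TET1-CD libraries.

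The surroundings of the members in the pathway were described by 7 lists of 90 genes, of which 71 were tested. At an adjusted p under 0.05, 17 rose and 20 fell, 52.1% where 19.7% of all genes tested passed. Of the 71, 8 rose and 3 fell by at least 2-fold, where 2.72% of all genes tested were called higher and 1.04% lower. The lists were chosen with earlier results of these data known, so nothing is read from these shares. The median log2 fold change over the 71 genes was -0.04. The 21 genes with the 3 smallest p-values in each list, most of them named below, were picked by p-value. That 20 of them passed at an adjusted p under 0.05 follows from this choice, and nothing is read from it. Some of these calls were lost under an alternative. Where leaving out a TET1-CD library ended the call, the adjusted p without it is given.

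**Figure D5:**
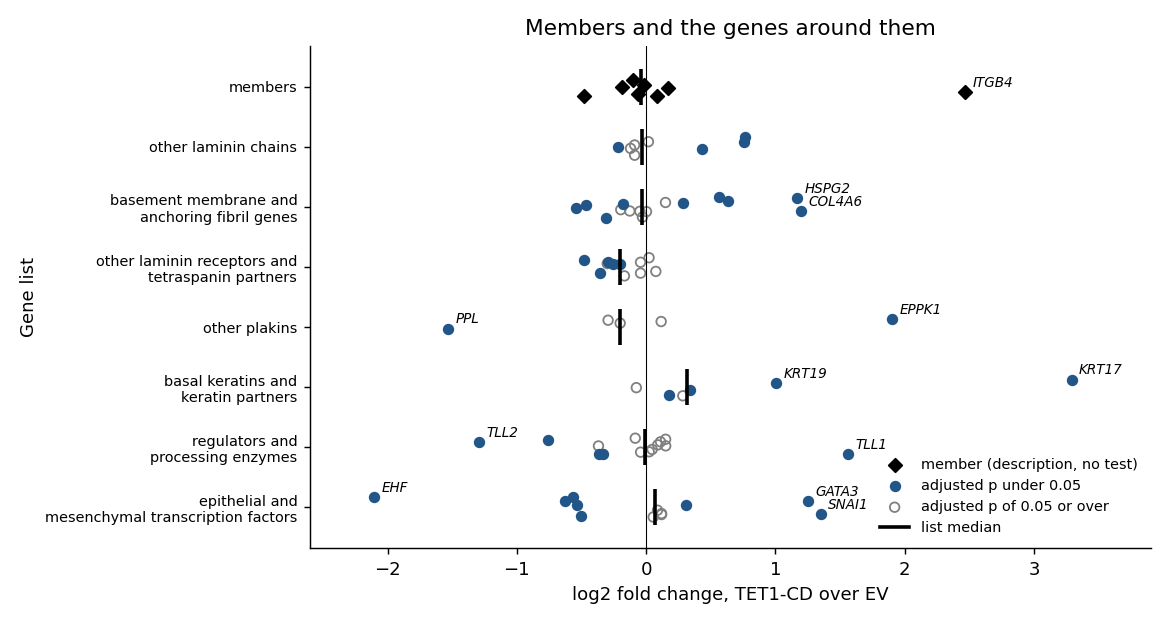
Log2 fold change of TET1-CD over EV for the members (diamonds, no test) and for the tested genes of 7 pathway lists, filled where the adjusted p was under 0.05, with a line at the median of each list. KRT17 at 3.29 and EHF at -2.10 lie farthest to either side, and ITGB4 at 2.47 lies apart from the other members.

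Among the other laminin chains 3 of 8 tested rose and 1 fell, with a median of -0.04. LAMA1, the α1 chain of embryonic laminins, had 131 and 86 counts in EV libraries against 173 and 188 in TET1-CD libraries, a log2 fold change of 0.76 (SE 0.15, adjusted p = 0.00771 by edgeR, and 0.0670 without TET1-CD replicate 1). LAMA4, an α chain of vessel and muscle laminins, had one of 0.43 (SE 0.10, adjusted p = 0.0162 by edgeR, but 0.0534 and 0.205 without TET1-CD replicate 1 and 2, and 0.0606 by DESeq2). Of the basement membrane and anchoring fibril genes, 5 of 15 rose and 4 fell, with a median of -0.03. COL4A6, a type IV collagen chain of epithelial basement membranes, had 279 and 243 counts in EV libraries against 569 and 618 in TET1-CD libraries (log2 fold change 1.20, SE 0.09, adjusted p = 1.89e-05 by edgeR). HSPG2, which encodes perlecan, rose by a log2 difference of 1.17 (SE 0.12, adjusted p = 0.000155 by edgeR), and COL18A1, the collagen that yields endostatin, rose by 0.56 (SE 0.05, adjusted p = 9.69e-05 by edgeR).

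Among the other laminin receptors and tetraspanin partners none rose and 5 of 11 fell, with a median of -0.20. CD82, a tetraspanin, fell by 0.48 on the log2 scale (SE 0.08, adjusted p = 0.00273 by edgeR). BCAM, a receptor for laminin α5, differed by a log2 fold change of -0.36 (SE 0.09, adjusted p = 0.0190 by edgeR, but 0.106 and 0.158 without TET1-CD replicate 1 and 2, and 0.0640 by DESeq2). CD9, a tetraspanin partner of integrins, had one of -0.30 (SE 0.07, adjusted p = 0.0204 by edgeR, but 0.248 and 0.0714 without TET1-CD replicate 1 and 2). The CD151 difference of -0.06 lay nearer to 0 than these.

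Of the other plakins 1 of 5 rose and 1 fell. PPL, which encodes periplakin of the cornified envelope, had 76 and 81 counts in EV libraries against 24 and 30 in TET1-CD libraries, a fall of 1.53 on the log2 scale (SE 0.24, adjusted p = 0.00224 by edgeR). EPPK1, epiplakin, rested on few counts, 7 and 9 in EV libraries against 30 and 30 in TET1-CD libraries (log2 fold change 1.90, SE 0.41, adjusted p = 0.0105 by edgeR, but 0.119 and 0.0802 without TET1-CD replicate 1 and 2). DSP, the desmosomal plakin, differed by a log2 fold change of -0.20 (SE 0.06, adjusted p = 0.0543 by edgeR).

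Of the keratins on the list 4 of 6 tested rose and none fell, with a median of 0.31. KRT5 and KRT6A had 0 counts in every library and were not tested. KRT14 had 0 and 2 counts in EV libraries against 1 and 0 in TET1-CD libraries and was not tested either. KRT17, a keratin of basal and injured epithelium, had 77 and 83 counts in EV libraries against 725 and 831 in TET1-CD libraries, a rise whose log2 fold change was 3.29 (SE 0.12, adjusted p = 1.05e-07 by edgeR) or 9.78-fold. KRT19, a keratin of simple epithelium and urothelium, rose by a log2 difference of 1.01 (SE 0.17, adjusted p = 0.00273 by edgeR). KRT7, a keratin of simple epithelium, differed by a log2 fold change of 0.34 (SE 0.05, adjusted p = 0.00175 by edgeR, and 0.0766 without TET1-CD replicate 1).

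Of the regulators and processing enzymes 1 of 14 rose and 4 fell, with a median of -0.01. KLHL24, a ubiquitin ligase adaptor for keratin 14, had 225 and 227 counts in EV libraries against 130 and 135 in TET1-CD libraries, a fall of 0.76 on the log2 scale (SE 0.13, adjusted p = 0.00377 by edgeR). ADAM17, a sheddase of the type XVII collagen ectodomain, differed by a log2 fold change of -0.33 (SE 0.06, adjusted p = 0.00331 by edgeR, but 0.0793 and 0.0575 without TET1-CD replicate 1 and 2). TLL2, a protease of the BMP1 family, had one of -1.29 (SE 0.26, adjusted p = 0.00759 by edgeR, and 0.0866 without TET1-CD replicate 1).

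Of the epithelial and mesenchymal transcription factors 3 of 12 rose and 5 fell, with a median of 0.07. EHF, an epithelial ETS factor, had 125 and 111 counts in EV libraries against 32 and 22 in TET1-CD libraries, a fall of 2.10 on the log2 scale (SE 0.23, adjusted p = 0.000277 by edgeR). TFAP2A, an AP-2 factor of basal epithelium, fell by 0.63 (SE 0.11, adjusted p = 0.00302 by edgeR), and ZEB2, a repressor of epithelial genes, fell by 0.50 (SE 0.09, adjusted p = 0.00343 by edgeR).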

How the data were processed

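RNA of 4 T24 libraries was sequenced on an Illumina HiSeq. The authors deposited, for each of 195700 transcripts, an estimated count that need not be whole and an FPKM value, which is scaled to length and depth. The submitters' processing notes name cutadapt 1.9.1, HISAT2 2.0.1, HTSeq 0.6.1, DESeq2 and hg19, and the tool that gave the fractional counts is not given in the sources used here. These estimates were added up for each gene and rounded, and libraries were compared with edgeR 4.0.16 (glmQLFit, TMM, filterByExpr, Benjamini-Hochberg over all genes tested) in R 4.3.3. The standard error is the log2 fold change over the square root of F. Precision is that of 2 libraries per group and of the counts given.

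The members and lists were chosen with earlier results of these data known. Besides cell type markers and listed keratins with too few counts to test, genes were named by a rule. The rule takes the members, TET1, the 3 smallest p-values per pathway list and the 3 genes most like ITGB4. It also takes the nearest tested genes of members past a fold change of 2, and overlapping tested genes. A gene that this rule also takes is not reported here. Exons and starts come from GENCODE on GRCh37 and RefSeq. Alternatives were DESeq2 1.42.0, RLE, library size, no filter, a minimum of 10 counts in each library, a replicate block, FPKM ratios and omission of each library. Subtraction of the median of genes of like length was chosen after seeing the data. The test was tried on simulated data.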

Additional observations from a re-analysis of the deposited data

How the results depend on the processing

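ITGB4 was the single member called under every alternative that gave a call. All genes called numbered 549 and fell to 332 with 10 counts in every library, where fewer genes were tested, and were between 323 and 617 with each library left out. Pathway genes called numbered 11 and were between 5 and 9 with each library left out, the lowest without TET1-CD replicate 1. The difference between the EV replicates correlated at 0.03 with that between the TET1-CD replicates over 14573 genes. With 1 difference per group, this cannot settle whether replicate numbers pair the libraries. A replicate block gave 568 genes, 11 pathway genes and 1 member called. DESeq2 gave 384 genes. At an adjusted p under 0.05 and any fold change, DST joined ITGB4, PLEC and COL17A1 when no filter was applied. The members that passed also changed with a library left out. PLEC no longer passed without either TET1-CD library. DST passed without EV replicate 2, and ITGA6 and CD151 passed without EV replicate 1. With 2 libraries per group, and a lone library assumed to vary like the other group when 1 was left out, small differences are poorly bounded. The low counts of ITGB4 in EV cells limit its transcript shares.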
